A study of Schizocardium californicum with 12 samples.

Results

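Larva-only genes of the hemichordate *Schizocardium californicum* were described together with their change in larvae after X-ray irradiation. The members were chosen by their measured values in control animals: a mean of at most 0.1 CPM (reads of a gene scaled to a common library total) in the 3 control juvenile libraries and of at least 10 CPM in the 3 control larval libraries. Of 27463 genes in the files, 9965 reached the larval minimum and 4118 were at or under the juvenile limit, and 160 genes met both. "Larva-only" is used here for these limits, not for absence from other stages of life.

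The libraries came from whole animals and fall into 4 groups of 3: larvae 3 days after 120 Gy, unirradiated larvae, juveniles 3 days after 200 Gy and unirradiated juveniles. Pools of 5 animals gave 1 library each, and the study describes the replicates as independent. The labels give no genotype, strain, sex or age beyond the stage, and larvae were fed algae. Since each stage had its own dose, a difference between irradiated larvae and irradiated juveniles cannot be told apart from a difference in dose. The total of gene reads ran from 7675726 to 26974509 over the libraries. In whole-animal RNA, fewer cells of a type and less RNA per cell cannot be told apart.

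The tornaria is the planktonic feeding larva of acorn worms. It swims and gathers algae with bands of cilia, carries an apical sensory organ and digests its food in a gut of several parts. At metamorphosis the animal becomes a burrowing worm. X-rays break DNA, and dividing cells are the most sensitive to them.

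The 160 genes took up 1.49%, 1.14% and 1.57% of the gene reads in the irradiated larval libraries, against 1.41%, 1.37% and 1.66% in control larvae. The groups overlapped, and the second irradiated library was the lowest of the 6. In juveniles the same genes held 129, 108 and 380 reads after 200 Gy and 55, 48 and 137 reads in controls, which is at most 0.00141% of the gene reads of a library.

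**Figure D1:**
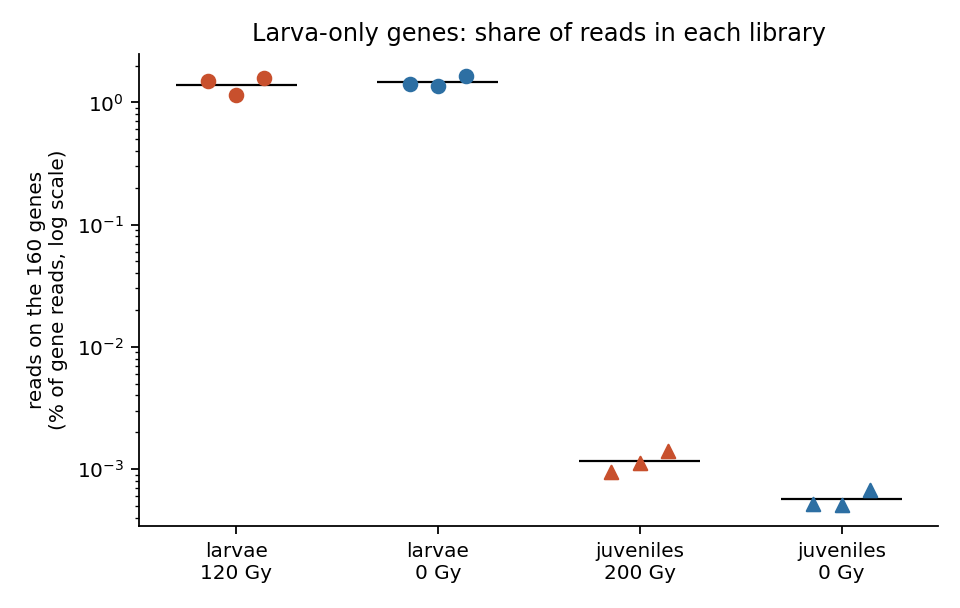
Share of gene reads on the 160 larva-only genes (%, log axis) in each library of the 4 groups. Points are libraries and lines are group means of 3. Larval libraries lie between 1.14% and 1.66%, and no juvenile library is above 0.00141%; the low control juveniles and high control larvae follow from the choice of the genes.

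The second irradiated larval library stood apart from the others in these genes. By a measure chosen after the values were seen, 40 of the 160 genes (25%) were below 50% of the mean of the other irradiated libraries there, against 3.36% of the genes tested with 10 CPM or more. In the other irradiated libraries 2 and 6 members were that low, and in the control larval libraries 4, 9 and 2. That library was the lowest of the 6 larval libraries for 69 members (43.1%, against 20.4%). The third irradiated library stood at the other end, with 26 members (16.25%) at over double the mean of the other irradiated libraries. Among the genes tested with 10 CPM or more, 1.69% were that high there. Members that high numbered 5 and 1 in the other irradiated libraries, and 1, 0 and 10 in the control larval libraries.

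The levels of the 160 genes in control larvae covered a wide range, which is a description of the values that chose them. The mean was 10.03 CPM for the lowest gene and 1589 CPM for the highest, with a median of 35.7 CPM. The mean was at least 100 CPM for 36 genes and below 20 CPM for 48. The 3 highest genes held 20.3% of the summed CPM of all members in control larvae, and the 10 highest held 38.1%.

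Just inside the larval minimum lay *Abca2-5* (10.03 CPM), *Unchar_304* (10.06 CPM) and *Unchar_4108* (10.08 CPM), and just outside it lay *Alx1-1* (9.96 CPM), *S18b1-17* (9.30 CPM) and *Pol4-85* (9.27 CPM). At the juvenile limit, *Trpa1-3*, *Unchar_3607* and *So4c1-5* were just inside at 0.0999 CPM each, and *Unchar_3552* (0.101 CPM), *Pols2* (0.101 CPM) and *Mrc1-2* (0.103 CPM) were just outside. For 140 of the 160 genes each control larval library was itself at or above 10 CPM. For 14 genes the mean of the lower 2 control libraries was below 10 CPM, so their membership rested on the highest library.

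The irradiated libraries played no part in the choice, but they compare the same stages. The members were chosen for a large difference between these stages in controls, so the count below was nearly fixed by the choice. It is given as a description only. All 160 genes were called higher in irradiated larvae than in irradiated juveniles (edgeR, quasi-likelihood, Benjamini-Hochberg-adjusted p of at most 0.05), where 28.6% of all 20780 genes tested were called higher. The mean in irradiated juveniles was at or below 0.1 CPM for 122 genes, above 0.1 CPM for 38 and above 1 CPM for 0, with a highest mean of 0.589 CPM.

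For 40 genes none of the irradiated juvenile libraries held a read, and 26 of these had no read in the control juveniles either. At a limit of 3 counts over the irradiated juvenile group (0.0594 CPM), the 40 genes were at least 118-fold (*Unchar_2051*) to at least 8521-fold (*Unchar_3630*) higher in irradiated larvae. For the 61 genes with more than 3 juvenile reads the ratio of pooled CPM was 24.7 (*Unchar_304*) to 5239 (*Unchar_869*), with a median of 283. These limits cover counting error only. The most juvenile reads after irradiation were held by *Unchar_1514* (34 reads), *Unchar_2279* (29 reads) and *Unchar_869* (23 reads), against 5, 3 and 4 reads in control juveniles.

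The summed CPM of the members was 9.37, 11.1 and 14.1 in irradiated juveniles and 5.22, 5.11 and 6.74 in control juveniles. The rule capped the control values, and the order turned round when the cap was put on the other group. For 155 genes chosen by the same limits on the irradiated libraries, the sums were 4.36, 4.32 and 8.49 CPM in irradiated juveniles and 11.1, 12.9 and 10.5 CPM in control juveniles. For 141 genes chosen on all 12 libraries they were 4.58, 4.73 and 7.53 CPM against 4.93, 5.65 and 5.61 CPM, which overlapped. No change of these genes in juveniles is therefore read from the counts.

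The names in the files place 105 of the 160 genes by likeness to known proteins, and 55 (34.4%) are uncharacterized, against 14.2% of the genes tested with 10 CPM or more in control larvae. The named genes were put into classes by name alone: 22 transporters, 18 genes of detoxification and small-molecule metabolism, 14 of extracellular matrix and adhesion, 11 hydrolases, 9 immune or lectin genes, 6 other receptors and signalling genes, 5 ion channels, 3 cilia genes, 3 transposon-derived genes, 1 G protein-coupled receptor, 1 cell-surface glycoprotein and 12 others. The 160 genes were shorter than other genes of like level, but near the genes of the files as a whole. The median number of exons was 4.5, against 9 for the genes tested with 10 CPM or more and 5 for all genes in the files. A single exon was found in 25 members (15.6%), against 3.60% and 17.3% of those sets. The median exon length was 1470 bases, against 2439 and 1592 bases.

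Per length, measured as TPM (transcripts scaled for length and depth), members of several classes were high. The genes given here are examples and not a ranking. *Unchar_869* had a mean of 1976 TPM in irradiated larvae and 1324 TPM in control larvae. *Unchar_2858* had 1373 TPM and 1590 TPM. The lectin *Lecg-4* had 660 TPM in irradiated larvae and 1117 TPM in control larvae.

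After 120 Gy, edgeR's quasi-likelihood fit called 6 of the 160 genes lower and 3 higher than in control larvae, with p-values adjusted by Benjamini-Hochberg over all genes tested. That is 3.75% and 1.88% of the members, against 2.05% and 1.87% of all genes tested and 3.25% and 2.57% of the genes tested with 10 CPM or more in control larvae. The shares called were thus near those of other genes of like level. Before adjustment, 27 members (16.9%) were lower and 11 (6.88%) higher at p of at most 0.05, against 9.48% and 10.4% of all genes tested and 12.4% and 13.4% of those with 10 CPM or more. DESeq2 called 13 members lower and 7 higher (8.13% and 4.38%, against 4.19% and 3.77% of all genes tested). No DESeq2 share among genes with 10 CPM or more is given, so its calls are not set against genes of like level. Calls given without a tool are those of edgeR. The counts of genes called lower and higher were 3 and 0 without the first control library, 4 and 1 without the second, 9 and 1 without the first irradiated library and 5 and 0 without the third.

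The fold changes of the members were shifted downward as a whole. Their median log2 fold change was −0.21 (quartiles −0.49 and 0.14), with 108 genes below 0 and 52 above, beside medians of 0.0095 for all genes tested and 0.0092 for those with 10 CPM or more. In TMM-normalized counts, all 3 irradiated libraries lay below all 3 controls for 26 of the 160 members and above them for 13. Of all 20780 genes tested, 2409 (11.6%) lay below and 2616 (12.6%) above. Of the 9965 genes with 10 CPM or more in control larvae, 1450 lay below and 1597 above. The control larvae that give the denominator also chose the genes, which favours a fall. For the 155 genes chosen on the irradiated libraries instead, of which 108 were the same, the median was −0.14, with 4 called lower and 4 higher of 154 tested. For the 141 genes chosen on all 12 libraries it was −0.18, with 5 called lower and 4 higher.

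**Figure D2:**
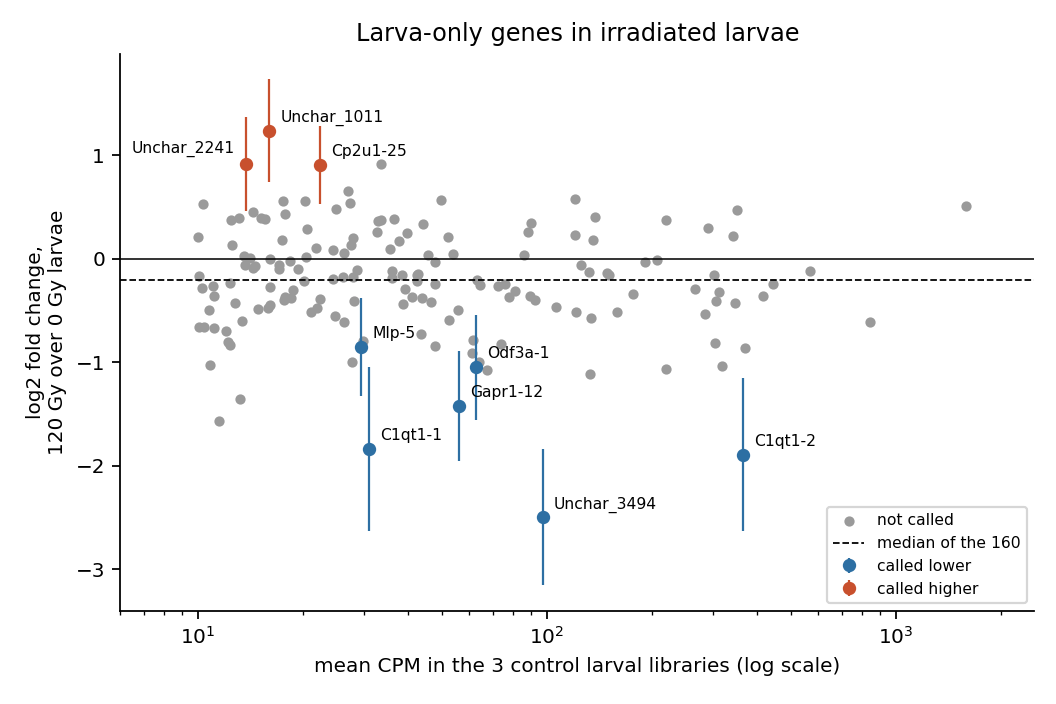
Log2 fold change in larvae after 120 Gy against the mean CPM in control larvae (log axis) for the 160 larva-only genes. Grey points were not called, coloured points were called (adjusted p of at most 0.05) and carry 95% intervals, and the dashed line is the median of −0.21. The 6 genes called lower reach −2.50 and the 3 called higher reach 1.23.

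Without the second irradiated library the median log2 fold change of the members was −0.096, and without the third it was −0.28. Relative to the control mean, the median over the members was −0.21, −0.30 and −0.098 on the log2 scale in the irradiated libraries 1, 2 and 3, so it was negative in each. The members also varied more between irradiated replicates (median coefficient of variation 24.4%) than the genes tested with 10 CPM or more did (11.8%), while in controls the values were 17.0% and 12.6%.

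The 11 hydrolases, enzymes that cut proteins, fats and sugars, varied with that library most. Their summed CPM was 1193, 430 and 2618 in irradiated larvae and 2029, 1260 and 3008 in control larvae, so the groups overlapped widely. The median log2 fold change of the class was −0.62, and 0 genes were called lower or higher, with 1 lower and 0 higher before adjustment (p of at most 0.05) and 0 called by DESeq2. Without the second irradiated library the class median was −0.13, and without the third it was −1.64. In the second irradiated library 9 of the 11 genes were the lowest of the 6 larval libraries. The same 9 were below 50% of the mean of the other irradiated libraries there. In the control libraries 1, 2 and 3, 0, 5 and 0 of the 11 were below 50% of the mean of the other controls. At over double the mean of the rest of the group were 8 of the 11 in irradiated library 3 and 3 in control library 3.

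*Amy1-1*, alpha-amylase, which cuts starch, had 61.1, 14.9 and 119 CPM in irradiated larvae, against 171, 79.0 and 150.0 CPM in control larvae. The 95% interval of its log2 fold change ran from −2.33 to 0.10, so that neither a fall nor a rise can be read from it. The second irradiated library was also lowest for the pancreatic-type lipase genes *Lipp-1* and *Lipr2-3* and the lactase-type glycosidase *Lph-16*. So it was for the brush-border phospholipase *Plb1-4* and *Entk-1*, named for the gut protease that activates trypsinogen.

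The exceptions were *Cmbl-4*, a carboxymethylenebutenolidase-type hydrolase with 53.8, 56.7 and 36.8 CPM in irradiated larvae against 42.5, 41.2 and 35.6 CPM in control larvae, and *Lyag-5*, named for lysosomal alpha-glucosidase. The low library was not a matter of the members alone. Of 76 further genes of a digestive hydrolase list that reached 10 CPM in control larvae but were also read in juveniles, 20 (26.3%) were below 50% of the mean of the other irradiated libraries there, against 2 and 1 in the other irradiated libraries. In the control larval libraries 1, 5 and 2 of these 76 genes were that low against the other controls. Over the whole list, 2 of 169 genes tested were called lower and 1 higher. What sets the second irradiated library apart was not tested.

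**Figure D3:**
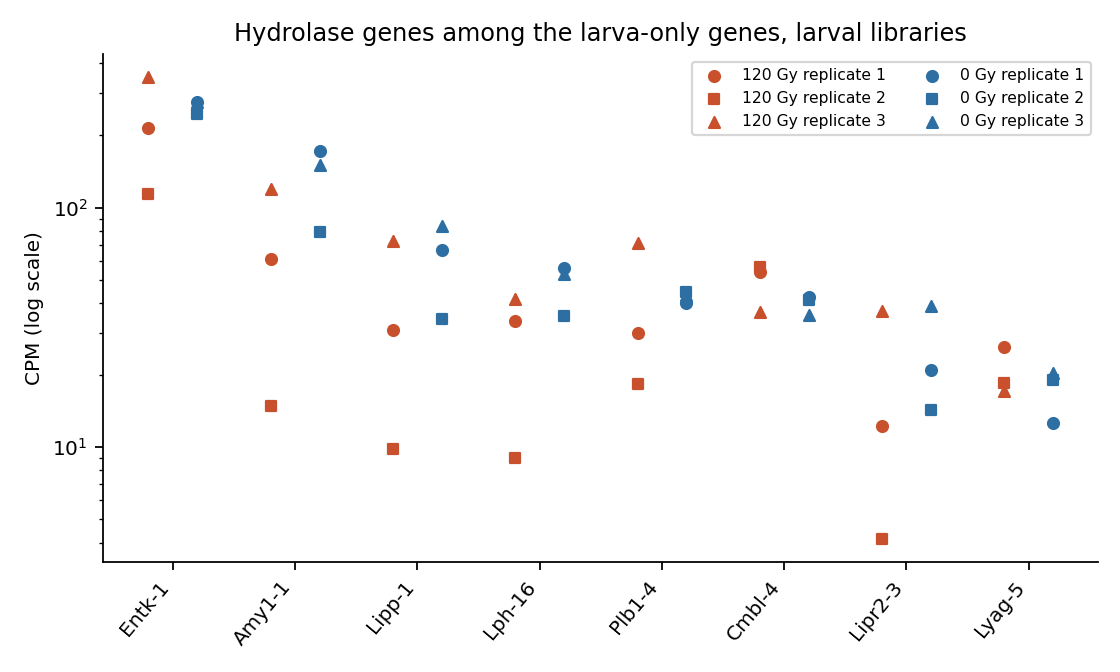
CPM (log axis) of 8 of the 11 hydrolase genes in each larval library, 120 Gy to the left of 0 Gy for each gene. Marker shapes are the replicates of a group, whose numbers do not pair the groups. Squares of the 120 Gy group, its second library, are the lowest of the 6 points in 6 of the 8 genes drawn.

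The 22 transporters, which carry nutrients, bile acids, lipids and organic ions across membranes or within cells, overlapped between the groups as a class. Their summed CPM was 1698, 1297 and 1808 in irradiated larvae and 1439, 1637 and 1538 in control larvae, and the median log2 fold change was −0.091. Without the second irradiated library the class median was −0.028, and without the third it was −0.24. Of the 22, 0 were called by edgeR in either direction, 1 was lower and 0 higher before adjustment (p of at most 0.05), and 0 were called by DESeq2.

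*Ntcp2-16*, named for the sodium-coupled bile acid transporter of the vertebrate ileum, had 312, 178 and 295 CPM in irradiated larvae and 313, 319 and 306 CPM in control larvae. *Fabp6-1*, named for the bile acid-binding protein of the same vertebrate tissue, had 71.6, 45 and 57.3 CPM against 52.1, 64.1 and 45.9 CPM. The second irradiated library was the lowest of the 6 for both genes, and their groups overlapped in CPM. In TMM-normalized counts, every irradiated library of *Ntcp2-16* lay below every control. It was not called (log2 fold change −0.32, adjusted p = 0.454 by edgeR). *Gtr5-3*, of the fructose carrier type, had 66.7, 39.9 and 114 CPM in irradiated larvae and 90.0, 92.9 and 95.6 CPM in control larvae, and its irradiated libraries lay on either side of the controls.

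The 3 liver-type fatty acid-binding protein genes among the members, which are named for carriers of fatty acids in the cytoplasm, all lie on chromosome 1A_Sc2 of the v2.0 genome. *Fabpl-11* had 279, 239.9 and 371 CPM in irradiated larvae and 201, 231 and 228 CPM in control larvae. *Fabpl-9* had 40.7, 19.5 and 48.6 CPM against 52.9, 57.0 and 47.7 CPM. The 2 genes had log2 fold changes of 0.37 and −0.59, neither of them called. *Fabpl-8* overlapped between the groups.

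Chromosome 15A_Sc2 carries 9 of the transporters, including the organic anion transporters *So3a1-6*, *So3a1-3* and *So4c1-5*, the 3 *S18b1* genes of the major facilitator family and the phosphate transporter *Npt2b-3*. In all, 15 members (9.38%) lie there, against 3.97% of the genes tested with 10 CPM or more. *So3a1-6*, the highest transporter, had 504, 389 and 348 CPM in irradiated larvae and 281, 407 and 337 CPM in control larvae, and the groups overlapped. Of its larval reads 66.5% were not uniquely placed, so its level may include reads of a near-identical copy.

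In the 18 genes of detoxification and small-molecule metabolism, edgeR called 0 lower and 1 higher, with a median log2 fold change of 0.013, and DESeq2 called 1 lower and 3 higher. *Cp2u1-25*, a cytochrome P450 (a family of haem enzymes that oxidize small molecules), had 48.9, 40.3 and 42.6 CPM in irradiated larvae and 20.2, 20.6 and 26.6 CPM in control larvae. Every irradiated library was above every control, and the log2 fold change was 0.90 ± 0.17 (SE) with an adjusted p of 0.0183 by edgeR. Leaving out either of the control libraries 1 and 2, or the irradiated libraries 1 or 3, ended the call, with adjusted p up to 0.0812.

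The other 3 *Cp2u1* members also had higher values in irradiated larvae, and edgeR called none of them, while DESeq2 called *Cp2u1-30* and *Cp2u1-32* higher. *Cp2u1-30* had 48.6, 39.9 and 43.9 CPM in irradiated larvae and 27.5, 23.9 and 29.2 CPM in control larvae (adjusted p = 0.053 by edgeR), again without overlap. It was called by edgeR with exon reads, with library totals and with at least 10 counts in each larval library. *Cp2u1-32* had 200.5, 169 and 186 CPM against 111, 146 and 104 CPM, without overlap (adjusted p = 0.166 by edgeR and 0.0144 by DESeq2). *Cp2u1-29* overlapped between the groups. Reads not uniquely placed made up 67.5% in *Cp2u1-29* and 63.0% in *Cp2u1-30*, which lie with *Cp2u1-32* on chromosome 20A_Sc2, so these genes may share reads.

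The files hold 54 genes named *Cp2u1*, of which 29 were tested. Of the 25 tested genes of this name that were not larva-only, 0 were called lower and 2 higher, and their median log2 fold change was 0.021. *Ak1a1-1*, an aldo-keto reductase, had 55.2, 18.1 and 26.9 CPM in irradiated larvae and 45.3, 76.3 and 80.9 CPM in control larvae. The libraries overlapped, and with a log2 fold change of −1.08 it was not called by edgeR (adjusted p = 0.0778), but it was by DESeq2.

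All 9 immune or lectin genes had log2 fold changes below 0, as did 108 of the 160 members. The class median was −0.49, but *Pla2r-2* (−0.00083) and *Plcl-6* (−0.059) were close to no change. Of the 9, 2 were called lower, against 2.05% of all genes tested. The summed CPM of the 9 genes was 573, 374 and 953 in irradiated larvae and 1262, 1055 and 1278 in control larvae, without overlap. In 6 of the 9 the second irradiated library was below 50% of the mean of the other irradiated libraries, and the class median was −0.40 without that library and −1.14 without the third.

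The called genes were both *C1qt1* members, named for secreted proteins with the C1q domain. *C1qt1-2* had 99.1, 60.4 and 148 CPM in irradiated larvae, against 447, 458 and 193 CPM in control larvae. Its log2 fold change was −1.89 ± 0.34 (SE) with an adjusted p of 0.0109 by edgeR. *C1qt1-1* had 10.6, 3.97 and 12.4 CPM in irradiated larvae, against 40, 32.8 and 20.3 CPM in control larvae, and a log2 fold change of −1.84 ± 0.37 (SE) with an adjusted p of 0.0177.

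In both genes every irradiated library was below every control, and the third control library was the lowest of the controls. Leaving out single libraries left *C1qt1-2* called each time, with log2 fold changes of −2.24 to −1.64. *C1qt1-1* was no longer called without the first control library (adjusted p up to 0.0756 over the libraries left out). In a fit of the larval libraries alone neither was called.

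Both genes lie on chromosome 8A_Sc2, and 5 genes of the files bear the name. The other 3 were read in juveniles too and were not called. *C1qt1-3*, on the same chromosome, had a mean of 7.33 CPM in irradiated larvae and 5.35 CPM in control larvae, *C1qt1-4* had 0.376 and 0.333 CPM, and *C1qt1-5* had 5.07 and 6.19 CPM.

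*Lecg-4*, a lectin, had 197, 52.8 and 394 CPM in irradiated larvae and 347, 230.5 and 532 CPM in control larvae. *Bgbp-3*, a protein that binds beta-1,3-glucan, a polysaccharide of fungi and algae, had 81.3, 19.2 and 230.2 CPM against 244, 120 and 294 CPM. In both genes the second irradiated library was the lowest of the 6, and the groups overlapped. The perlucin-type C-type lectin *Plcl-6* had 127, 150.4 and 96.7 CPM in irradiated larvae and 116, 134 and 125 CPM in control larvae, around the controls.

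Of the 14 genes of extracellular matrix and adhesion, 0 were called by edgeR in either direction, 5 were lower and 1 higher before adjustment (p of at most 0.05), and DESeq2 called *Mfgm-5* and *Svep1-62* lower. The median log2 fold change was −0.33. *Sez6-2*, a membrane protein with CUB and sushi domains, had 422, 276 and 313 CPM in irradiated larvae and 315, 471 and 464 CPM in control larvae. *Agrin-5*, a heparan sulfate proteoglycan, had 164, 82.6 and 113 CPM against 98.5, 74.5 and 97.5 CPM. Both overlapped between the groups.

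*Mfgm-5*, named for lactadherin, which binds the surface of dying cells in vertebrates, had 34.1, 23.3 and 24.6 CPM in irradiated larvae and 43.5, 39.5 and 47.8 CPM in control larvae. Its libraries did not overlap, and its log2 fold change was −0.73 ± 0.18 (SE) with an adjusted p of 0.0591 by edgeR. The 4 collagen triple helix repeat genes of the set, all on chromosome 23A_Sc2, were read at most 2 times in control juveniles, and 3 of them held no read in any juvenile library. *Cthr1-26*, the highest of them, had 69.4, 64.2 and 53.7 CPM in irradiated larvae and 81.6, 73.9 and 78.0 CPM in control larvae, without overlap, and was not called (log2 fold change −0.38, adjusted p = 0.184 by edgeR).

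*Zan-13*, named for zonadhesin, a membrane protein with von Willebrand factor D domains, had 542, 589 and 503 CPM in irradiated larvae and 366, 473 and 866 CPM in control larvae. Its controls spread more widely than its irradiated libraries, and the interval of its log2 fold change was −0.74 to 0.50.

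**Figure D4:**
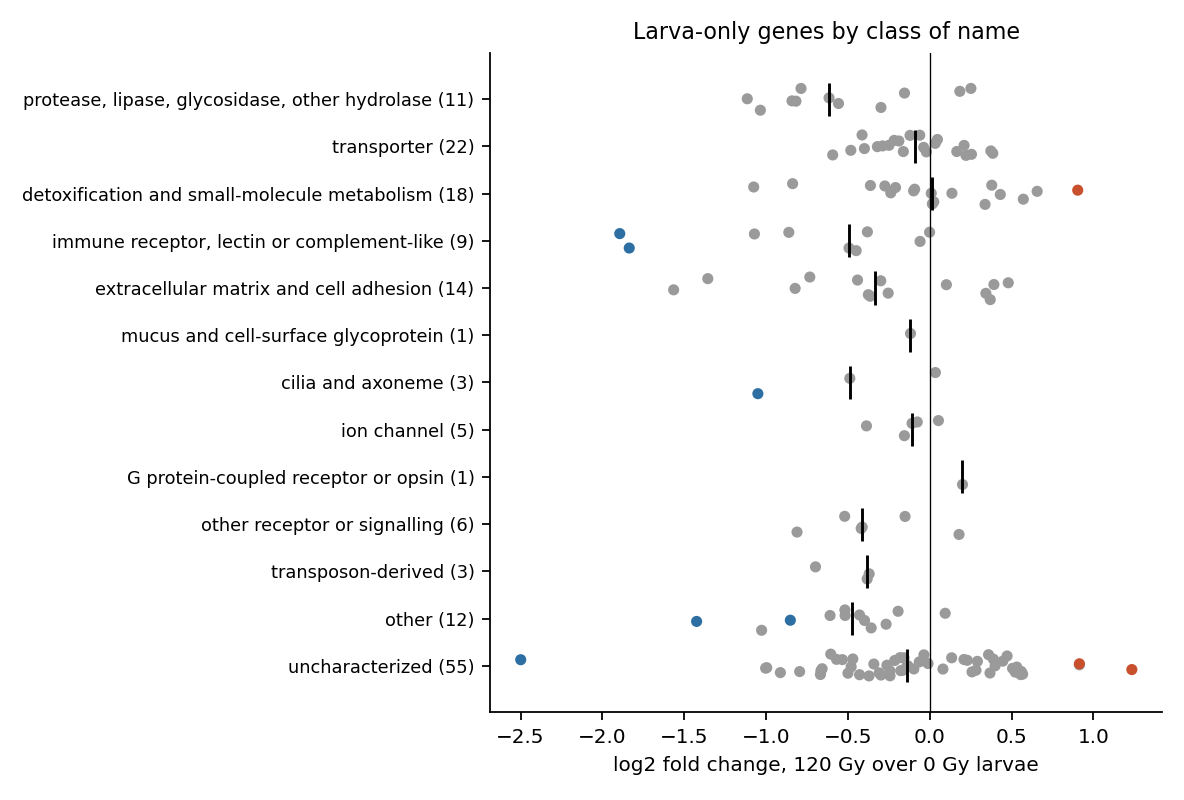
Log2 fold change in larvae after 120 Gy for each of the 160 larva-only genes, by class of name, with the number of genes in parentheses. Blue points were called lower, orange points higher and grey points were not called, and black bars are class medians. The hydrolase median is −0.62 and the transporter median −0.091, and the 2 called immune genes lie near −1.89.

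Few of the genes belong to the ciliary or sensory apparatus by name, but members are few among all genes too, at 160 of 27463. The list counts below are therefore not read as a lack of such genes. Of 123 genes in a list of cilia and axoneme names, 1 was a member, *Odf3a-1*, named for a protein of the outer dense fibres that surround the axoneme. It had 41.9, 31.4 and 21.1 CPM in irradiated larvae, against 67.9, 63.9 and 56.4 CPM in control larvae, without overlap. Its log2 fold change was −1.05 ± 0.23 (SE) with an adjusted p of 0.029 by edgeR, and leaving out any of the larval libraries except the first irradiated one ended the call. Over the list, 2 of 114 genes tested were called lower and 0 higher, with a list median of −0.0032. The Tctex-type dynein light chain gene *Tc1d1-4* had 108, 91.8 and 76.1 CPM in irradiated larvae and 91.2, 87.8 and 79.9 CPM in control larvae, which overlapped.

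The 5 ion channel genes had log2 fold changes between −0.39 and 0.053, and 0 were called by edgeR or DESeq2 or had an unadjusted p of at most 0.05. *Pk1l2-33*, a polycystin family protein, had 316, 291 and 241 CPM in irradiated larvae and 312, 297 and 298 CPM in control larvae. *Trpa1-3*, a TRP channel that senses irritants, had 26.1, 29.5 and 27.3 CPM against 30.2, 25.3 and 30.2 CPM. A list of neurotransmission and apical sensory genes held 3 members, *Trpa1-3* and the acetylcholine-gated channel subunits *Acha6-5* and *Acha9-3*, among 441 genes, and 1 of its 347 genes tested was called lower and 3 higher. The adhesion G protein-coupled receptor *Agrl3-12* had 33.2, 33.8 and 33.0 CPM in irradiated larvae and 21.6, 26.2 and 35.7 CPM in control larvae.

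Among receptors and signalling genes, *Nrp1-1*, a neuropilin, the co-receptor of semaphorins and VEGF, had 243, 259 and 215 CPM in irradiated larvae and 319, 269 and 328 CPM in control larvae. Its libraries did not overlap, and it was not called (log2 fold change −0.41, adjusted p = 0.216 by edgeR). *Disp1-1*, dispatched, which releases Hedgehog ligands, had 129, 206 and 143 CPM against 161, 110.0 and 136 CPM, with overlap.

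No member belonged to a list of 99 mitosis and DNA replication genes. With 160 members among 27463 genes, a list of that size is too short for this to be read as an absence. Of its 93 genes tested, 26 were called lower in irradiated larvae and 0 higher. The 3 retrotransposon-type genes overlapped between the groups for *Pol4-118* and *Pol4-95* but not for *Pol4-115*, which had 8.48, 6.70 and 8.02 CPM in irradiated larvae and 9.64, 14.6 and 12.0 CPM in control larvae and was not called. Of the reads of *Pol4-95*, 99.7% were not uniquely placed.

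Of the remaining named genes, *Gapr1-12* and *Mlp-5* were called lower. *Gapr1-12*, a protein with the CAP domain, had 29.2, 18.9 and 17.2 CPM in irradiated larvae, against 53.9, 52.8 and 61.5 CPM in control larvae. Its log2 fold change of −1.42 ± 0.24 (SE, adjusted p = 0.0086 by edgeR) stayed called whichever larval library was left out, between −1.68 and −1.27. The second *Gapr1* member, *Gapr1-18*, overlapped between the groups at a log2 fold change of 0.094. Of 14 further *Gapr1* genes tested, 1 was called lower and 1 higher.

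*Mlp-5* had 15.4, 15.7 and 19.8 CPM in irradiated larvae, against 25.1, 30.8 and 32.1 CPM in control larvae, without overlap. Its adjusted p was 0.0492 by edgeR, just at the threshold, and the call ended whichever library was left out. The heme-binding protein gene *Hebp2-2* had 303, 185 and 318 CPM in irradiated larvae and 394, 295 and 348 CPM in control larvae, with overlap. *Cryd-2*, a cryptochrome of the photolyase family, which are light-driven flavoproteins, had 136, 37.7 and 173 CPM against 166, 208 and 101 CPM. The 3 caveolin genes of the set, all on chromosome 3A_Sc2, had no read in any juvenile library, and none was called in larvae.

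Of the 55 uncharacterized genes, edgeR called 1 lower and 2 higher, and DESeq2 called 5 lower and 4 higher. They held 7258, 5790 and 6780 summed CPM in irradiated larvae and 5503, 5699 and 6255 CPM in control larvae, and the highest of them, *Unchar_869*, accounted for 2572, 2053 and 2429 CPM against 1421, 1563 and 1784 CPM. Every irradiated library of *Unchar_869* was above every control, but with a log2 fold change of 0.51 and an adjusted p of 0.138 by edgeR it was not called; DESeq2 called it higher.

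*Unchar_3494*, a single-exon gene on chromosome 16A_Sc2 with no read in any juvenile library, had the largest fall of the 160 genes. It had 22.7, 20.8 and 10.3 CPM in irradiated larvae, against 101, 79.5 and 112 CPM in control larvae. Its log2 fold change was −2.50 ± 0.29 (SE) with an adjusted p of 0.0037 by edgeR, and it stayed called whichever larval library was left out, between −2.70 and −2.21.

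*Unchar_1011*, on chromosome 15A_Sc2, had the largest rise. It had 33.5, 36.9 and 47.4 CPM in irradiated larvae, against 12.9, 18.5 and 16.6 CPM in control larvae, and a log2 fold change of 1.23 ± 0.23 (SE, adjusted p = 0.0125 by edgeR). Without the first control library or the third irradiated one it was not called (adjusted p up to 0.0624). *Unchar_2241*, on chromosome 1A_Sc2 and without a juvenile read, had 31.7, 20.1 and 29.1 CPM in irradiated larvae, against 15.0, 14.2 and 12.1 CPM in control larvae. Its adjusted p was 0.0418, and it stayed called only when the second irradiated library was the one left out.

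**Figure D5:**
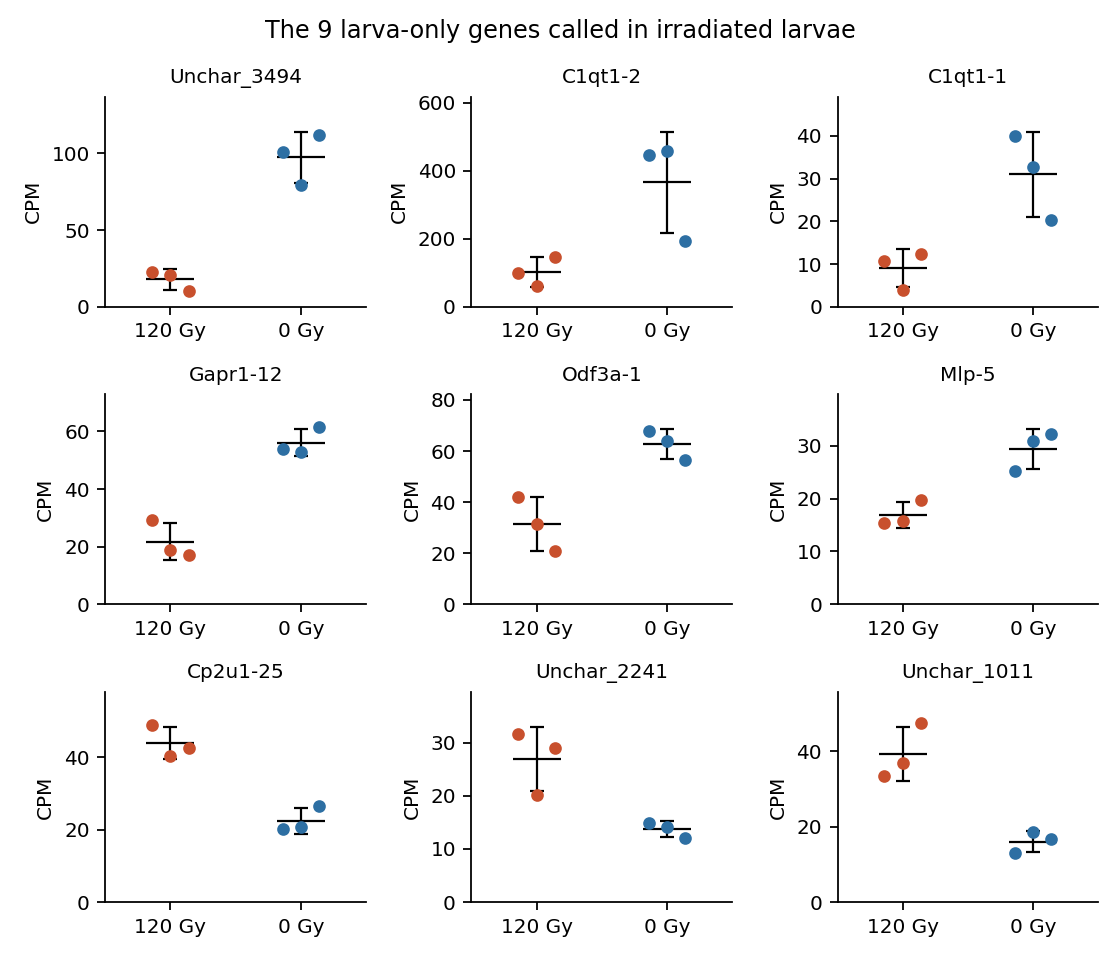
CPM of the 9 called larva-only genes in the 3 libraries of irradiated larvae (120 Gy) and of control larvae (0 Gy), with the mean and SD (n = 3). In each panel every irradiated library lies on one side of every control, and the distance is largest in *Unchar_3494*, at 10.3 to 22.7 CPM against 79.5 to 112 CPM.

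A further 8 members had an adjusted p over 0.05 and up to 0.1 by edgeR, 6 of them lower and 2 higher in irradiated larvae. The 2 higher ones were *Cp2u1-30*, given above, and *Unchar_1075*, which had 61.3, 81.3 and 54.0 CPM in irradiated larvae and 33.0, 35.3 and 32.4 CPM in control larvae. The median standard error of a log2 fold change was 0.25 for the members, 0.51 for the hydrolases among them and 0.16 for the genes tested with 10 CPM or more, so changes of the members had to be larger to be called.

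After irradiation the members kept their place above the juvenile level: the mean was at least 10 CPM in irradiated larvae for 144 of the 160 genes, and the lowest mean was 3.97 CPM.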

How the data were processed

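RNA was measured in 12 libraries from pools of 5 animals, per the labels. The authors mapped reads to the v2.0 genome with CLC Genomics Workbench and deposited, per gene, whole-number counts of total, unique, exon and intron reads without normalization, and TPM values that the same program calculated per exon length. They also deposited other annotation: the chromosome, number of exons and gene and exon lengths. How reads of near-identical copies were shared and whether counting used strand is not given in the sources used here. Coordinates and sequences were not used here. The authors' own tests used DESeq2 with apeglm.

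CPM was total gene reads divided by the column sum and scaled to the usual common total. Counts were fitted in R 4.3.3 with edgeR 4.0.16 (quasi-likelihood, TMM factors 0.931 to 1.07, filterByExpr, 20780 genes kept, all 12 libraries, 1 mean per group, common biological coefficient of variation 0.208). Irradiated larvae were compared with control larvae and with irradiated juveniles by two-sided tests with Benjamini-Hochberg adjustment over all genes tested, called at 0.05 or less. Per-library values are CPM, and TPM was used only for levels between genes. Total gene reads ran from 7675726 to 26974509 per library, and limits of 3 counts cover counting error only. With 3 against 3 libraries, the tests rest on the spread pooled across genes. The fitting code was tested on simulated data with known changes. Plots were drawn with matplotlib 3.10.9.

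The members and the gene lists were chosen with earlier results of these data known. Classes were assigned from gene names. Members named are the 10 highest in control larvae, up to 10 called in each direction without overlap between groups, the 3 nearest each limit, the highest of each name family with 3 or more members, the 3 highest in irradiated juveniles and the 2 highest named of each class; further genes were named after their values were seen. Alternatives were median-of-ratios size factors, library totals, 2 filters, DESeq2 1.42.0, the larval libraries alone, a replicate block, unique or exon reads, an adjusted p of 0.01, other limits or libraries for the choice of members, and leaving out each library. Values of 3 hydrolase genes of the set are not reported here singly.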

Additional observations from a re-analysis of the deposited data

How the results depend on the processing

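The direction of the median log2 fold change of the members held under every alternative run. All members tested were called higher in irradiated larvae than in irradiated juveniles under each alternative run for that comparison: 159 of 159 with unique reads and 160 under the others. It was not run with at least 10 counts in each larval library, and could not be in the fit of the larval libraries alone. Of 97 values of the whole set under an alternative, 81 stayed within 1.5 times the main count or within the spread, and 16 moved. DESeq2 called 13 members lower and 7 higher, but also 4.19% and 3.77% of all genes tested, a set not limited to genes of like level. Of the members, 3 were called lower in the fit of the larval libraries alone, and an adjusted p of 0.01 left 2 lower and 0 higher. With at least 10 counts in each larval library, with exon reads and with library totals, 5 were called higher. With a larval minimum of 20 CPM, 1 was called higher, and a juvenile limit of 0.05 CPM left 104 members. Leaving out single larval libraries gave 3 to 9 called lower and 0 to 3 called higher, against 6 and 3 with all libraries. The 0 came without control larva 1 or irradiated larva 3. The median ran from −0.28 to −0.096, and leaving out single control libraries from the choice gave 150 to 173 members. The numbers of the labels did not pair the groups (correlations of same-numbered larval libraries 0.010, −0.030 and 0.063). With a replicate block 4 members were called lower and 1 higher. Of 644 values of 43 named members, 0 turned round with a call, 34 lost a call and 4 gained it, in 10 members. *Unchar_3494* and *Gapr1-12* were called under every alternative run. Juvenile values rest on a few reads each.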

Other observations

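The 160 genes were spread over 26 sequences of the genome, 23 of them chromosomes. Next to chromosome 15A_Sc2, with 15 members, chromosomes 1A_Sc2 (18 members, 11.3%, against 8.30% of the genes tested with 10 CPM or more in control larvae), 20A_Sc2 (12 members, 7.5%, against 4.26%) and 8A_Sc2 (11 members, 6.88%, against 4.38%) held the most. Of 14 named families with 2 or more members, 8 had their members on 1 sequence and 6 had them on 2, namely *Cp2u1*, *Orct*, *Pol4*, *G3st1*, *Gapr1* and *Plcl*. Of the families on 1 sequence, all 4 *Cthr1* members lie on 23A_Sc2, all 3 *Fabpl* members on 1A_Sc2, all 3 *S18b1* members on 15A_Sc2, and both *C1qt1* members on 8A_Sc2. These were small parts of their families, with 4 of 29 *Cthr1*, 3 of 13 *Fabpl*, 3 of 21 *S18b1* and 2 of 5 *C1qt1* genes. Whether the genes are neighbours was not analysed here. Over 50% of the larval reads were intronic in 7 members, among them *Fmo5-5* (78.2%), *S18b1-1* (72.7%) and *S18b1-8* (57.8%).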
